A study of Mus musculus with 6 samples.

Results

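The genes described here are those of MHC class II antigen presentation, 10 genes chosen by name: H2-Aa, H2-Ab1, H2-Eb1, H2-DMa, H2-DMb1, H2-Oa, H2-Ob, Cd74, Ciita and Ctss. Their members on the array are all probe sets annotated to 1 of these symbols, 17 of 45101 probe sets, which cover 9 of the 10 genes. H2-DMb1 had no probe set of its own. A further 3 probe sets were annotated to a member together with another gene, and these are given apart. The signals came from Affymetrix 3' expression arrays of colonic mucosa from C57BL/6 mice, untreated per the labels, with 3 arrays labelled p38a knockout and 3 wild type, each lettered A to C. Mapk14 encodes p38a, a kinase that responds to stress. Epithelial cells of the intestine are the labelled cell type, and the labels give no age, sex, deleter line or deleted part of the gene. They do not say that the arrays came from separate animals, so the p-values cover the spread among these 6 arrays only, and that spread may be technical.

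MHC class II molecules are pairs of an alpha and a beta chain that show peptides from engulfed material to CD4 T cells. New pairs are escorted by the invariant chain, Cd74, which proteases such as cathepsin S trim down. The chaperone H2-DM then exchanges the last invariant chain fragment for peptide, and H2-O restrains H2-DM. Transcription of these genes depends on the coactivator CIITA, recruited to the X and Y boxes of their promoters by RFX and NF-Y factors and induced in many cells by interferon gamma. Dendritic cells, macrophages and B cells are the usual carriers, and intestinal epithelial cells can carry class II as well. Mice of the labelled strain make I-A from H2-Aa and H2-Ab1 but no I-E, because H2-Ea is not transcribed in their haplotype.

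Promoter stretches of members are shown because the shared X and Y boxes are the textbook feature of this family. Of the genes printed, H2-Oa and H2-Ob did not keep the array order described below, and H2-DMb1 had no probe set of its own. A link between the boxes and that order was not tested. RefSeq windows of 300 bases (250 before to 50 after the start; build GRCm38.p6) were held for 7 of the 10 genes. The Y box was searched by its core GATTGG and the X box by the letters AACNGATG, on both strands. The Y core was found in the windows of 6 of the 7 genes (H2-Aa, H2-Eb1, H2-DMa, H2-DMb1, H2-Oa and H2-Ob), against 16.1% of all 32851 windows. For H2-DMa it lay in the window of the second of its annotated starts only, 199 bases upstream. The X letters were found for 3 of the 7 (H2-Eb1, H2-DMb1 and Ctss), against 2.32% of all windows. Both were found for H2-Eb1 and H2-DMb1, with 29 and 30 bases between the first letters of X and Y, against 0.335% of all windows. In Ctss the X letters lay 207 bases upstream with no Y core. Below are the 100 bases from 110 to 11 before the start, read 5′ to 3′ on the gene's strand, with matches in capitals (on either strand).
H2-Eb1, chr17:34305757-34305856, plus strand: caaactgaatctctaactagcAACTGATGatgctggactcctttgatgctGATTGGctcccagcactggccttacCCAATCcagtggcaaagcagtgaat
H2-DMb1, chr17:34153081-34153180, plus strand: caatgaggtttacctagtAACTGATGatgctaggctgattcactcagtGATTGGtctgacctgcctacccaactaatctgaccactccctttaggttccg
H2-Ob, chr17:34238795-34238894, plus strand: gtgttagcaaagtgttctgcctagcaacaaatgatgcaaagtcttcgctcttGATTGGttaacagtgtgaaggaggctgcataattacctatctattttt
H2-Aa, chr17:34287834-34287933, minus strand: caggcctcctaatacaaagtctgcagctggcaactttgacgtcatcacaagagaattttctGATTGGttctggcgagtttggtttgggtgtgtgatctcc
H2-Oa, chr17:34092269-34092368, plus strand: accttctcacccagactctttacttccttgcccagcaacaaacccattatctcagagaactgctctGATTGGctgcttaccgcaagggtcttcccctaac
In each of these 5 stretches a Y core began 44 to 62 bases before the start, and that of H2-Eb1 held another on the opposite strand, 35 bases before it. A match is a description of the letters and not evidence that a factor binds there. A missing match is not evidence that a box is absent, because only these fixed letters were searched and a box spelled otherwise is missed.

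Before the members, 2 facts of the series bear on the labels and the scale. Values are given in the order A, B, C within each label throughout. The brightest Mapk14 probe set read 9.72, 9.91 and 9.73 under the knockout label and 9.31, 9.44 and 9.37 in wild type. It was thus not lower under the knockout label (log2 difference 0.41, SE 0.14, limma adjusted p = 0.902), and the position of this probe set against the deleted part is not known here. The arrays are therefore called "labelled knockout". The trimmed mean of the deposited signals ran from 117 to 222 over the arrays, so the arrays were quantile normalized and levels are given as log2(signal + 16), a scale on which the fold changes of dim genes are understated. The 13 colonic epithelium markers (Epcam, Cdh1, Krt8, Krt18 and others) were all above the filter, with array means from 11.94 to 12.15. All 7 general leukocyte markers were above it as well, so leukocyte transcripts were measured beside the epithelial ones.

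No class II gene differed between the labels by more than the spread between arrays. At an adjusted p of 0.05 in limma, 0 of the 9 tested members passed, and the share called among all 12437 genes was 0%. At an unadjusted p under 0.05 again 0 of the 9 passed, where 3.94% of all genes did (1.74% higher under the knockout label). The groups overlapped for all 9, where 9.06% of all genes had groups apart (4.68% higher and 4.38% lower under the knockout label). In the mean 8 of the 9 read higher in the arrays labelled knockout, with a median log2 difference of 0.14, beside 53.2% of all genes higher and a median of 0.02. For each of the 9 the SD within groups was larger than the difference between them. Without wild type B the median difference was -0.07, without labelled knockout C it was -0.01, and without wild type C or labelled knockout A it was 0.45 or 0.39. Their median SD within groups was 0.46, against 0.26 over all genes. In bulk RNA, fewer cells of a type and less RNA per cell cannot be told apart.

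The classical chains that form the peptide-binding pair showed this most plainly. H2-Ab1, the I-A beta chain, read 10.30, 10.77 and 11.54 under the knockout label and 10.61, 10.18 and 11.39 in wild type. The C array was the highest of each group, and the lowest arrays, knockout A and wild type B, lay close together. The difference between group means was 0.14 (SE 0.37, 95% interval -0.71 to 0.998, limma adjusted p = 0.952; exact two-sided permutation p = 0.7). Within groups the C array was 2.37-fold above knockout A and 2.31-fold above wild type B, far more than the distance between the group means.

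H2-Aa, the I-A alpha chain, read 12.50, 13.15 and 13.39 in the arrays labelled knockout and 13.00, 12.40 and 13.26 in wild type. The arrays fell in the same order within each group as for H2-Ab1. The log2 difference was 0.13 (SE 0.27, 95% interval -0.49 to 0.75, limma adjusted p = 0.939). H2-Eb1, the I-E beta chain, read 10.35, 11.06 and 11.59 against 10.61, 10.18 and 11.41, again with C highest in both groups. Its difference was 0.26 (SE 0.37, 95% interval -0.59 to 1.12, limma adjusted p = 0.906).

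Cd74, the invariant chain, read 10.15, 10.40 and 10.88 under the knockout label and 10.11, 9.95 and 10.58 in wild type. The 2 highest arrays were again the C arrays and the lowest was wild type B. The means, 10.48 ± 0.37 (SD, n = 3) and 10.22 ± 0.33 (SD, n = 3), differed by 0.26 (SE 0.23, 95% interval -0.27 to 0.80, limma adjusted p = 0.902).

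**Figure D1:**
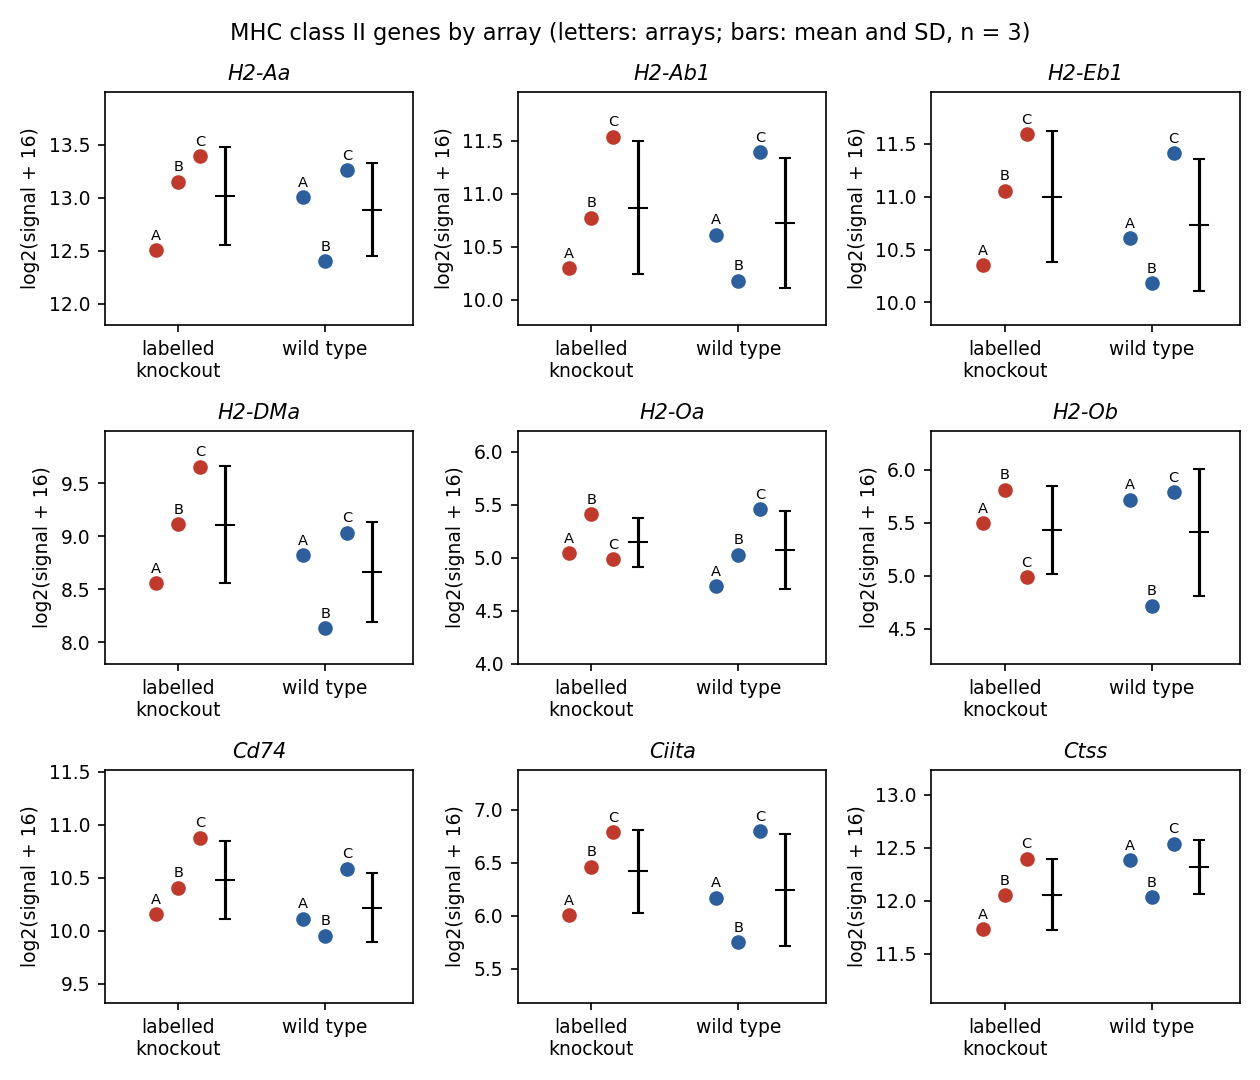
Level of each of the 9 measured class II genes on the log2(signal + 16) scale (vertical axis, 2.2 log2 units high in every panel) in the 3 arrays labelled knockout (red) and the 3 wild-type arrays (blue); letters name the arrays and bars give the mean and SD. In 7 of the 9 panels the knockout arrays run A, B, C and the wild-type arrays B, A, C from low to high, and the groups overlap in all 9.

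The peptide-loading chaperone gave the largest difference among the members, and it too missed the test. H2-DMa, the DM alpha chain, read 8.55, 9.11 and 9.65 under the knockout label against 8.82, 8.13 and 9.03 in wild type. The arrays labelled knockout B and C lay above all wild-type arrays, but A lay below wild type A and C. The 1.36-fold difference (log2 0.45, SE 0.33, 95% interval -0.30 to 1.196) had a limma adjusted p of 0.902 and an exact two-sided permutation p of 0.4. Its second, dimmer probe set gave 0.54 (SE 0.39, limma adjusted p over probe sets = 0.915), with knockout C highest and wild type A lowest. For the brighter set the difference was 0.17 without knockout C, 0.18 without wild type B and 0.72 without knockout A.

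For the DM beta chain, H2-DMb1, only 2 probe sets were informative, both annotated to H2-DMb1 and H2-DMb2 together, so neither gene can be named from them. One read 8.95, 8.99 and 9.34 in the arrays labelled knockout and 8.77, 8.11 and 8.91 in wild type. Here the groups did not overlap, as for 8.74% of all 27002 probe sets in either direction and 4.75% in this direction. The difference was 0.50 (SE 0.24, limma adjusted p over probe sets = 0.915; exact two-sided permutation p = 0.1, the smallest that 3 against 3 arrays can give). The other shared set read 8.53, 8.65 and 9.13 against 8.18, 7.98 and 8.74, a difference of 0.47 (SE 0.25) with overlap, as wild type C lay above knockout A and B. The probe sets of H2-DMb2 alone did not go this way: all 3 were lower in the mean of the labelled knockout arrays, by -0.13, -0.14 and -0.40, with overlap in each (exact two-sided permutation p = 0.7, 0.4 and 0.2).

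The DM inhibitor H2-O was close to the bottom of the scale. H2-Oa, its alpha chain, read 5.04, 5.41 and 4.99 in the arrays labelled knockout and 4.73, 5.03 and 5.46 in wild type, just above the filter on dim probe sets. H2-Ob, its beta chain, read 5.50, 5.81 and 4.98 against 5.72, 4.72 and 5.79. Neither followed the order of the other members: knockout C, the highest array for the chains, was the lowest of its group for both. The differences were 0.07 (SE 0.25, limma adjusted p = 0.966) and 0.02 (SE 0.34, limma adjusted p = 0.991). A probe set annotated to H2-Ob and Gm20506 together lay below the filter.

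Ciita, the coactivator on which the family depends, was dim, and 2 of its 3 probe sets kept the order of the chains. Its brightest probe set read 6.01, 6.46 and 6.79 under the knockout label and 6.17, 5.75 and 6.80 in wild type. The 2 C arrays were nearly equal and the lowest was wild type B, as for the chains. The difference was 0.18 (SE 0.32, 95% interval -0.55 to 0.90, limma adjusted p = 0.923). Its 2 other probe sets gave 0.24 and 0.06, also with overlap (exact two-sided permutation p = 0.4 and 1). The first of these did not keep the order. It read 6.22, 5.89 and 6.66 under the knockout label and 5.98, 6.00 and 6.06 in wild type.

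Ctss, cathepsin S, was the member whose mean was lower in the arrays labelled knockout. It read 11.73, 12.05 and 12.40 there and 12.38, 12.04 and 12.54 in wild type. Knockout A was the lowest array and wild type C the highest, and the groups overlapped. The difference was -0.26 (SE 0.20, 95% interval -0.71 to 0.19, limma adjusted p = 0.902; exact two-sided permutation p = 0.5). The difference stayed negative with any 1 array left out (-0.43 to -0.10). It read 0.14 on the signals as deposited, where the median difference over all genes was 0.43, and 0.0237 against wild type B alone.

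**Figure D2:**
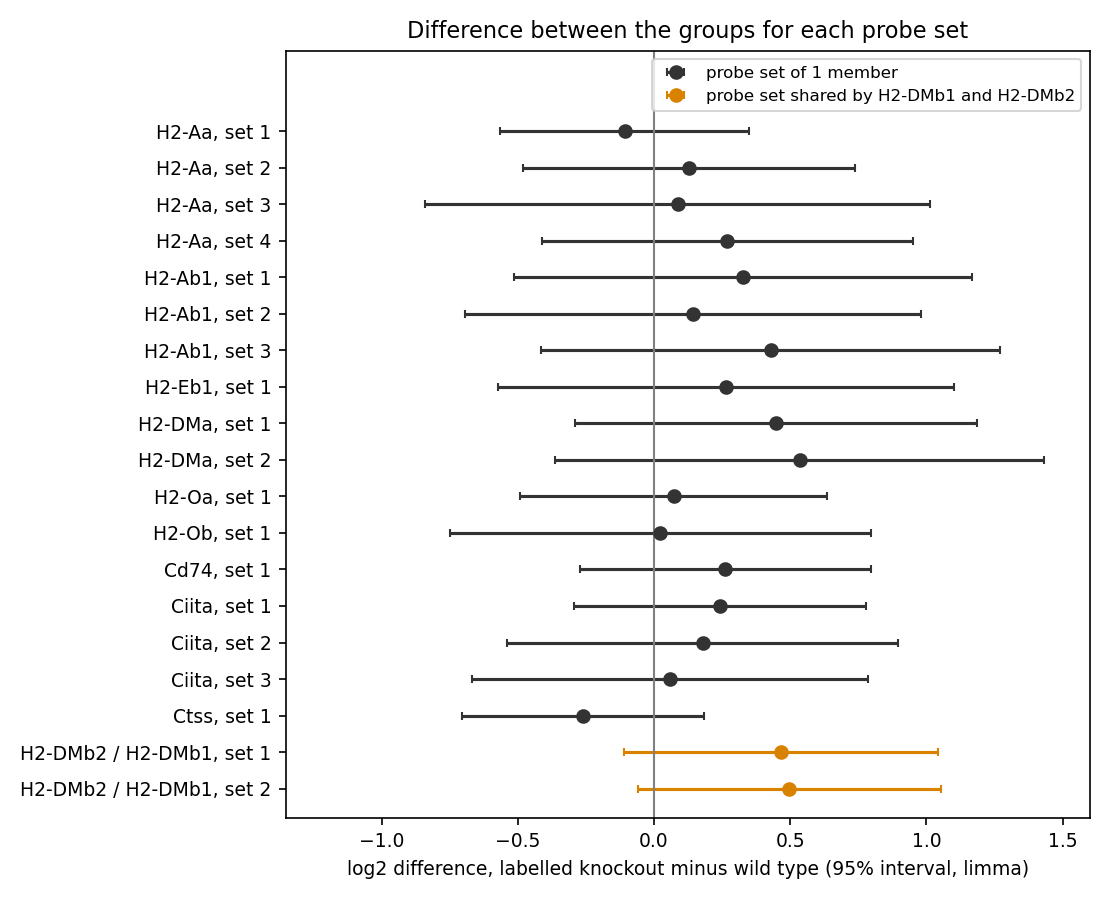
Log2 difference, arrays labelled knockout minus wild type (horizontal axis), with the 95% interval from limma, for the 17 probe sets of 1 member (black) and the 2 sets above the filter shared by H2-DMb1 and H2-DMb2 (orange); sets of a gene are numbered in the order of their identifiers. Of the 17, 15 lie above 0 and 2 below, and every interval includes 0.

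Taking every probe set in place of the brightest gave the same picture. All 17 were above the filter, 15 read higher and 2 lower in the mean of the labelled knockout arrays, and the groups overlapped in all 17. The limma adjusted p over probe sets ran from 0.915 to 0.993, and the median difference was 0.18, beside 0.02 over all probe sets. The 4 sets of H2-Aa ran from -0.11 to 0.27 and the 3 of H2-Ab1 from 0.14 to 0.43. The lower sets were 1 of H2-Aa and that of Ctss. Knockout C was the highest array for 13 of the 17, and wild type B the lowest for 10. All sets of H2-Aa and 2 of the 3 of H2-Ab1 carry an identifier suffix (x or s) that marks probes matching more than 1 transcript.

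The members varied together from array to array, across the labels. By their brightest probe sets, 7 of the 9 genes (all but H2-Oa and H2-Ob) kept 1 order. Their arrays labelled knockout ran A, B, C and their wild-type arrays B, A, C from low to high, as did those of 9.09% of all genes. Among H2-Aa, H2-Ab1, H2-Eb1, Cd74, H2-DMa and Ciita, Pearson's r over the 6 arrays ran from 0.87 to 0.99 in the 15 pairs, with the highest between H2-Eb1 and Ciita. Ctss followed these 6 less closely, with r from 0.55 to 0.77. Over all 6 arrays H2-Oa reached at most 0.47 with any other member and H2-Ob at most 0.39. For these dim genes r depended on the arrays included (values below). All points share the same 6 RNA samples and their normalization, and probe sets of related chains can share sequence, so these r are descriptions with no test.

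**Figure D3:**
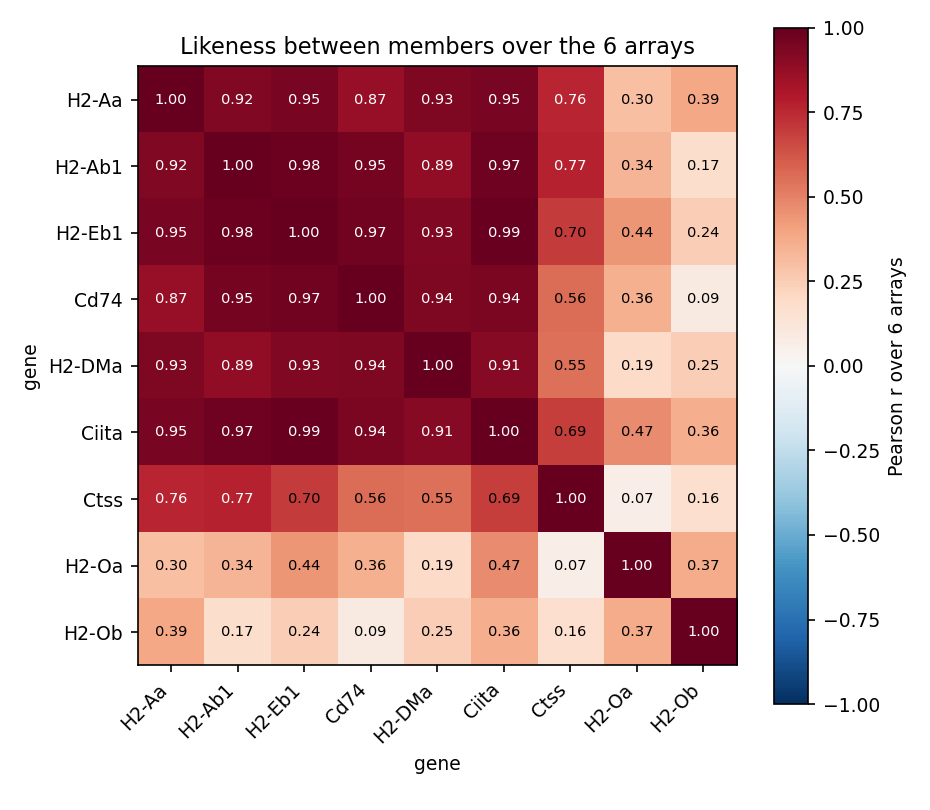
Pearson's r over the 6 arrays between each pair of the 9 measured class II genes, on a colour scale from -1 (blue) to 1 (red). The 6 genes from H2-Aa to Ciita form a block of r from 0.87 to 0.99, Ctss stands at 0.55 to 0.77 with them, and H2-Oa and H2-Ob stand at 0.47 or less with every other member.

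The mean of H2-Aa, H2-Ab1, H2-Eb1 and Cd74 puts this order in 1 value per array. It was 10.83, 11.35 and 11.85 under the knockout label, and 11.08, 10.68 and 11.66 in wild type. Knockout C and wild type C differed by 0.19, and knockout A and wild type B by 0.15. Of 3358 other genes whose arrays spanned at least 1 log2 unit, 37 (1.1%) had r above 0.9 with this mean. The 10 most like it were Tmem25, Gbp8, Pla2g3, Itpr3, Hsd3b3, Ces2a, Il15, Ttyh2, Tns4 and Abcb1a, with r from 0.95 to 0.99 over 6 arrays and no test.

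Among them Gbp8, a guanylate-binding protein gene of the interferon-induced family, read 6.95, 7.68 and 9.001 in the arrays labelled knockout and 7.50, 6.68 and 8.63 in wild type. Ces2a, a carboxylesterase gene, read 8.75, 9.32 and 11.05 against 9.60, 8.48 and 10.84. Il15, a cytokine gene, read 7.25, 7.52 and 8.35 against 7.57, 7.05 and 8.37. Each was highest in the 2 C arrays, as the chains were. With the 2 most extreme arrays for the class II mean left out, wild type B and knockout C, r was 0.97 for Gbp8, 0.90 for Ces2a and 0.91 for Il15 over the remaining 4. These genes were picked by r over all arrays, which include those 4, so a high r there was largely given by that choice. Over the same 4 arrays r with the class II mean was 0.73 for H2-Oa, 0.85 for H2-Ob and 0.76 for Ctss. Over all arrays it was 0.37, 0.23 and 0.72.

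General leukocyte markers moved over the arrays as well, and their mean parted from the class II mean in knockout C. All 7 general leukocyte markers (Ptprc, Laptm5, Coro1a, Cd52 and others) read lower in the mean of the labelled knockout arrays, none of them past the test, with a median of -0.48. Their mean was 7.08, 8.12 and 7.59 under the knockout label and 8.16, 7.04 and 8.97 in wild type. Knockout A and wild type B were the lowest arrays, as for class II. Wild type C was 1.38 above knockout C, although the class II mean was 0.19 lower there. The summed signal of these markers ran from 1031 to 2439 in the arrays labelled knockout and from 1077 to 4710 in wild type.

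Of 13 macrophage markers 9 were tested, with all 4 defining ones (Adgre1, Csf1r, Cd68 and Mertk) among them. Their mean was 6.34, 7.23 and 7.09 in the arrays labelled knockout and 7.11, 6.37 and 7.29 in wild type. Wild type C was 0.20 above knockout C, against 1.38 for the general leukocyte markers. The summed signal of the 9 ran from 1614 to 2332 under the knockout label and from 1908 to 2232 in wild type. The macrophage sum held Cd14, at 10.45 in wild type B and 9.19 in wild type C, while the sum of the 8 others was lower in wild type B. Without Cd14 the sum was 496, 1167 and 1096 under the knockout label and 1095, 528 and 1662 in wild type. The list mean had r of 0.81 (Spearman's rho 0.60) with the class II mean over 6 arrays, with no test. Of 14 B cell markers 10 were tested, with a mean of 5.62, 6.27 and 5.69 against 6.30, 5.42 and 6.22 and r of 0.41 (rho 0.43). Their summed signal ran from 361 to 650 and from 293 to 671. Cd79a lay below the filter, and Ms4a1 and Cd79b above it.

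Of 10 dendritic cell markers 3 were above the filter, Itgax, Flt3 and Itgae, the last an integrin gene that intraepithelial T cells express too. The defining genes Zbtb46 and Cd209a lay below it. The summed signal of the 3 ran from 206 to 412 in the arrays labelled knockout and from 195 to 836 in wild type, the highest in wild type C. Without Itgae it ran from 44.5 to 66.0 and from 38.5 to 169. The mean of the 3 had r of 0.69 (rho 0.66) with the class II mean. All 8 tested T cell markers of 12 listed read lower in the mean of the labelled knockout arrays (median -0.58), with summed signals from 340 to 669 and from 395 to 1537. None of these genes passed the test in limma. The part of the carrier cells in the class II values was not tested.

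**Figure D4:**
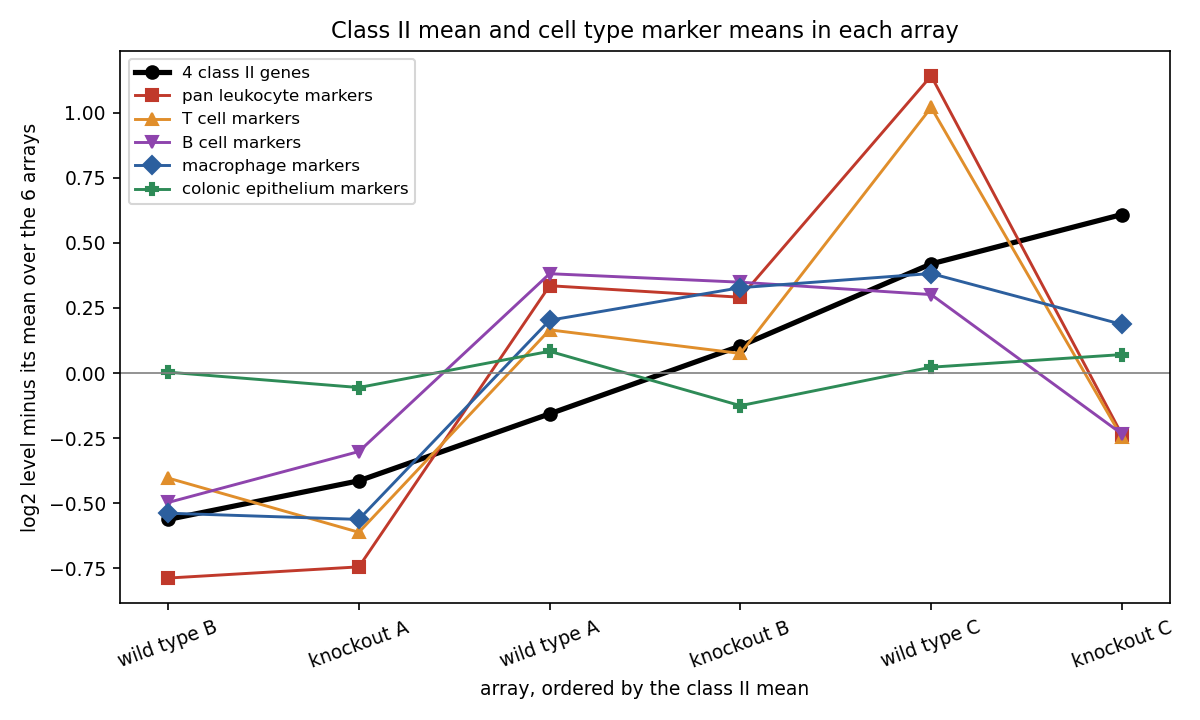
Mean log2 level of 4 class II genes (H2-Aa, H2-Ab1, H2-Eb1 and Cd74) and of 5 marker lists in each array, each minus its own mean over the 6 arrays (vertical axis, log2 units), with the arrays ordered by the class II mean. The general leukocyte and T cell lines peak in wild type C and fall below their mean in the array labelled knockout C, where class II is highest, and the epithelial line stays within 0.2 of its mean.

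None of the regulators of class II transcription passed the test between the labels. All 9 genes of that list (RFX subunits, NF-Y subunits, Creb1, Crebbp and Ep300) were tested, 5 read higher and 4 lower, with a median difference of 0.02. The smallest p-values belonged to Creb1 at 0.23 (SE 0.20), Ep300 at -0.19 (SE 0.20), Nfyb at 0.16 (SE 0.19) and Nfya at 0.15 (SE 0.19). Rfx5, the DNA-binding RFX subunit, read 7.67, 7.55 and 7.84 in the arrays labelled knockout and 7.48, 7.56 and 7.84 in wild type. Its arrays lay between 7.48 and 7.84, while those of the brightest Ciita probe set reached from 5.75 to 6.80.

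Of 12 processing and related class II genes 10 were tested, 6 higher and 4 lower, and none passed in limma, with a median of 0.06. Ifi30, the thiol reductase of the endocytic pathway, read 10.57, 10.44 and 10.88 in the arrays labelled knockout and 10.13, 10.46 and 10.24 in wild type, a difference of 0.35 (SE 0.17, limma adjusted p = 0.902). Cd83, which in dendritic cells counters the removal of class II from the surface, stood at 0.33 (SE 0.19) and was the 1 gene of the 10 whose groups did not overlap, as for 9.06% of all genes (4.68% in this direction). Lgmn, a lysosomal protease, stood at 0.29 (SE 0.24). H2-Ea, which this strain should not transcribe, read 5.12 to 6.06 on its brightest probe set, and 2 others lay below the filter. H2-Eb2 lay below the filter.

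Most genes of interferon gamma signalling had a negative difference, none of them past the test. Of 9 listed 7 were tested, 6 lower and 1 higher, with a median of -0.11. Socs1, the feedback inhibitor, read 5.05, 5.06 and 5.11 in the arrays labelled knockout and 5.63, 5.39 and 5.30 in wild type, a difference of -0.37 (SE 0.19). Its groups did not overlap, 1 of the 7 genes, as for 4.38% of all genes in this direction. Jak2 stood at -0.32 (SE 0.18), Irf1 at -0.39 (SE 0.26) and Irf8 at 0.21 (SE 0.24). Ifng lay below the filter. Irf1 was highest in wild type C (11.82) and A (11.47), whereas knockout C (11.30) was below both.

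Of 6 costimulation genes 4 were tested and none passed in limma. Cd274, which encodes the inhibitory ligand PD-L1, read 6.198, 6.67 and 6.69 in the arrays labelled knockout and 8.44, 6.97 and 8.69 in wild type. All 3 arrays labelled knockout lay below all wild-type arrays (difference -1.51, SE 0.42, limma adjusted p = 0.902), as for 4.38% of all genes in this direction, and wild type B lay nearest to them. Without wild type B its difference was -2.04 and passed in limma (adjusted p = 0.0438), and against wild type B alone it was -0.45 (limma adjusted p = 0.999). Cd80 and Cd86 lay below the filter.

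The class II differences depended on which wild-type arrays they were set against. Against wild type A and C the arrays labelled knockout differed by -0.13 for H2-Ab1, -0.01 for H2-Eb1 and 0.18 for H2-DMa. Against wild type B alone they differed by 0.69, 0.82 and 0.98. This fit has 1 control array, so its spread comes from the labelled knockout arrays and the control is assumed to vary alike. All 3 labelled knockout arrays then lay above the control for 7 of the 9 members, where 22.2% of all genes did so. RNA degradation raises the Gapdh control's 3' signal over its 5' signal. That ratio was 1.097, 0.989 and 1.45 in wild type and 0.907, 0.954 and 0.859 under the knockout label. Class II was highest in the arrays with the highest and the lowest ratio, wild type C and knockout C. All 3 Gapdh ratios under the knockout label lay below all 3 in wild type, so this covariate cannot be told apart from the label. With the Gapdh ratio as a covariate the median over the members was 0.68, and no member passed in limma. The same ratio of the Actb control was 2.05, 2.27 and 1.82 under the knockout label and 2.40, 2.24 and 3.25 in wild type. Its groups overlapped, it too was highest in wild type C and lowest in knockout C, and it was not used as a covariate.

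On the signals as deposited, where the median difference over all genes was 0.43, the median of the members was 0.55. There H2-DMa (0.98) and Cd74 (0.76) had no overlap between the groups, as had 24.5% of all genes in that direction. Neither passed in limma (adjusted p = 0.268 each), and 3 of the 9 members had an unadjusted p under 0.05, as had 16.8% of all genes in that direction. With arrays centred on their medians the same 2 genes had no overlap, where 6.92% of all genes did in that direction, at 0.75 and 0.52 (limma adjusted p = 0.708 each). Their unadjusted p was under 0.05 there, as for 2.7% of all genes in that direction. After quantile normalization the groups overlapped for both.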

How the data were processed

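The authors deposited 1 linear signal intensity per probe set and array. MAS5 is the software named in the submitters' processing notes; its version, target and scaling were not given in the sources used here. Signals were taken as log2(signal + 16) and quantile normalized in limma 3.58.1 (R 4.3.3). A filter at the 40th percentile of the mean (a signal of about 18.4), with 64 control sets left out, kept 27002 probe sets. Symbols came from the platform annotation (34945 sets with 1 symbol, 932 with several, 9160 with none here); a set with several symbols named no gene. The brightest set of each gene was tested (12437 genes) by lmFit and eBayes (variance trend), Benjamini-Hochberg over all genes at 0.05. Array number limits the precision.

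All members were named; of pathway lists, up to 4 genes with the smallest p, H2-Ea, H2-DMb2 and H2-Eb2. Rfx5, Cd80, Cd86, Cd274, Spib, Cd14, Itgae, Ifng, Gbp8, Ces2a and Il15 were described in more detail after their values were seen. The members, lists and alternatives were chosen with earlier results of these data known. Same-lettered arrays were not treated as pairs in the main fit. Their deviations from the group means correlated at -0.04, -0.11 and 0.45 for A, B and C. Only for knockout C was the same-lettered wild-type array the closest, and what the C arrays share was not tested. The steps were tested on simulated data. Promoter sequences are RefSeq's.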

Additional observations from a re-analysis of the deposited data

How the results depend on the processing

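Over 19 other settings no member passed in limma, with adjusted p-values from 0.154 to 0.9997. The median over the members was 0.14. It was 0.55 on the signals as deposited, 0.67 against wild type B alone and 0.68 when the Gapdh ratio was a covariate. That ratio separates the labels, so the last value cannot tell its effect from that of the label. The number of genes called over the whole table, 0, became 1 as deposited, with arrays centred on their medians, with a pseudocount of 64 and against wild type B alone. It became 3 with the replicate letter as a block (replicate block), which changed no member's call, and 171 with array weights (gene-by-gene estimation), among them Cd274 (limma adjusted p = 0.0214) and the B cell marker Spib (0.0407). Leaving out 1 array gave 0 to 6 genes called, the 6, with Cd274 among them, without wild type B. Ctss reversed to 0.14 as deposited, where the median difference over all genes was 0.43, and to 0.0237 against wild type B alone. H2-Ob reversed to -0.0704 with array weights. With 1 array left out the differences ran from -0.11 to 0.39 for H2-Aa, -0.19 to 0.47 for H2-Ab1, -0.0305 to 0.60 for H2-Eb1, -0.0653 to 0.46 for Ciita, -0.10 to 0.27 for H2-Oa, -0.32 to 0.25 for H2-Ob, 0.17 to 0.72 for H2-DMa, 0.06 to 0.45 for Cd74 and -0.43 to -0.10 for Ctss. The negative values of the first 4 came without wild type B or knockout C, and the median of the members was then -0.07 and -0.01. Of 168 single-member values, 152 kept their direction and 16 reversed, most of these with 1 array left out. The 152 include settings that cannot change a difference, such as no filter, no variance trend or the replicate block. The count therefore overstates how stable the directions were. The causes were not tested. The 95% intervals reach beyond 0.5 in either direction for H2-Ab1, H2-Eb1, Ciita and H2-Ob. Those of H2-Aa, H2-DMa, H2-Oa and Cd74 reach beyond it upward only, and that of Ctss downward only. Changes of that size in these directions are not excluded with 3 arrays a group. The filter at the 60th percentile left out H2-Oa and H2-Ob, and a pseudocount of 64 left out H2-Oa.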
